A study of Rattus norvegicus with 2 samples.

Results

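The smooth muscle contractile genes described here are the 9 genes *Acta2*, *Tagln*, *Myh11*, *Cnn1*, *Myl9*, *Mylk*, *Tpm2*, *Lmod1* and *Des*, chosen by symbol from the 25399 genes of a single-cell RNA sequencing experiment on neonatal rat hearts. Hearts of Sprague-Dawley pups of both sexes, aged 1 to 3 days, were pooled. Ventricular tissue cut from the apex was digested and separated on a Percoll gradient. Cells of its low-density band, which the study describes as other than ventricular myocytes but with some cardiomyocytes, were cultured. They were exposed for 2 h either to lipopolysaccharide (LPS), a bacterial cell wall component, at 1 µg/ml or to saline (control). Each condition gave 1 library of the 10X Genomics 3′ kind, which counts unique molecular identifiers (UMIs), so a difference between LPS and control is a difference between 2 libraries and no test was possible. All intervals below are 95% intervals that cover counting error only.

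Smooth muscle contracts when calcium and calmodulin activate myosin light chain kinase, which phosphorylates the regulatory light chain of smooth muscle myosin and lets the motor pull on actin filaments. Tropomyosin, calponin and transgelin bind these actin filaments, leiomodin starts new ones, and desmin links the apparatus to the rest of the cell. In the heart the set is carried by the smooth muscle of coronary vessels, by pericytes to varying degrees and, for *Acta2* and *Tagln* above all, by activated fibroblasts. Several members are not confined to smooth muscle: *Des* and *Tpm2* also serve striated muscle, and *Mylk* has forms outside muscle.

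The control library held 11531 cells with a median of 12479 UMIs, and the LPS library 12689 cells with a median of 9432. The deposited cell annotation holds 11 clusters, a number that differs from that in the study's methods. The authors named clusters 0, 1 and 7 fibroblasts, cluster 3 intrinsic cardiac adrenergic (ICA) cells and cardiomyocytes, clusters 4 and 5 endothelial cells and cluster 6 macrophages, and left cluster 2 and 3 small clusters without a name. The labels call all cells ICA cells, but *Dbh*, the enzyme that makes norepinephrine, had a UMI in 2.10% of control and 1.26% of LPS cells. Of the barcodes, 194 occurred in both libraries, with 1 in cluster 2 of both. A level is the UMIs of a gene summed over the cells of a cluster, per 1000000 UMIs of that cluster (CPM), and it is compared between clusters and libraries within a gene, not between genes.

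Cluster 2 (1188 control and 1421 LPS cells, median depth 6854 and 5082 UMIs) was led by *Rgs5*, *Ndufa4l2*, *Kcnj8*, *Higd1b* and *Gucy1b1*, genes of pericytes, the contractile cells that wrap capillaries. All 13 listed pericyte markers were detected in it, but so were they in cluster 0 and in other clusters. Together they reached 1893 CPM in control and 1550 in LPS, against 298 and 212 in the fibroblasts of cluster 0. Of this sum *Pdgfrb* gave 504 and 365 CPM in cluster 2, against 194 and 126 in cluster 0. *Cspg4* was at 18.4 and 17.0 CPM in cluster 2, above its 4.31 and 6.30 in cluster 0 but below its 32.4 and 39.8 in cluster 3. From the leading genes and the summed level, cluster 2 is called pericyte-like here. Smooth muscle markers other than the 9 genes summed to 680 and 455 CPM in cluster 2 and to 275 and 162 in cluster 0. Their sum was highest in cluster 3, at 2260 and 2144 CPM, of which *Pln* gave 2119 and 2049. Of the sum in cluster 2, *Ppp1r14a* gave 416 and 275 CPM, while *Pln* was near equal in clusters 2 and 0 (41.9 and 41.2 CPM in control). *Susd5* and *Fhl5* had no UMI in cluster 2, and *Kcnmb1*, a channel subunit of mature smooth muscle, had 8 and 3 UMIs. Fibroblast markers were also present in cluster 2, at 5651 and 4299 CPM against 11999 and 10930 in cluster 0, and their part in the levels below was not tested.

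RefSeq promoter windows (build GRCr8, 250 bases before to 50 after the gene start) were available for 5 of the 9 genes. They are shown for 3 genes that differ in where they were highest in these cells, *Acta2* (cluster 2 in both libraries), *Cnn1* (cluster 2 in control only) and *Des* (cluster 3). The printed stretches are the 150 bases before the start, at chr1:241172504-241172653 (minus strand), chr8:28908287-28908436 (plus strand) and chr9:84299476-84299625 (plus strand). Capitals mark CArG boxes, the sites of serum response factor, with 1 of the 6 middle bases allowed to be C or G, and the TATA motif TATANAA, both searched on both strands.
Acta2: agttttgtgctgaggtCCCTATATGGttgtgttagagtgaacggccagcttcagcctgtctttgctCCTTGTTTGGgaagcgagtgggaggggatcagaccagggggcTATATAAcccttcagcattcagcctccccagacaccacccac
Cnn1: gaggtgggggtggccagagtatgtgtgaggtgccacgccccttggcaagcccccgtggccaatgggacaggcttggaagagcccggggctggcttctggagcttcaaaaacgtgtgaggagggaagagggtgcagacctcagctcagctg
Des: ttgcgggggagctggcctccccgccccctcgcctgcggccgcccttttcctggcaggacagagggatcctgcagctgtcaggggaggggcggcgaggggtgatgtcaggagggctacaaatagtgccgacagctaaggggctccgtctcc
The *Acta2* window held 2 such boxes, from 134 to 125 and from 84 to 75 bases before the start, and a TATA motif from 42 to 36 bases before it. The windows of *Cnn1*, *Des*, *Tpm2* and *Mylk* held none of these motifs. Among all 33469 promoter windows of this length, 9.42% held a CArG box under this rule, 1.64% one with no base off and 12.9% the TATA motif. None of the 5 members with a window had a box with no base off in it. *Tagln*, *Myh11*, *Myl9* and *Lmod1* had no window and were not searched.

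The 9 genes were mostly at their highest in the pericyte-like cells. In both libraries 7 of the 9 had their highest level in cluster 2 (*Acta2*, *Tagln*, *Myh11*, *Myl9*, *Mylk*, *Tpm2* and *Lmod1*), where 3.36% of the 11808 genes with at least 50 UMIs in each library did. The 10 clusters with at least 20 cells in each library entered this ranking. The authors' clusters were made from the same expression data, and *Mylk* and *Myl9* were numbers 23 and 29 among the genes leading cluster 2. The ranking is therefore a description and not a test of where these genes belong. Together the 9 genes made up 4596 CPM (4553 to 4640) of cluster 2 in control and 4368 (4323 to 4413) in LPS, against 1743 and 1643 in cluster 0, 2161 and 1937 in cluster 3 and 651 and 466 in the endothelial cluster 4. Because fibroblasts were far more numerous, cluster 0 still held 58.0% of all *Acta2* UMIs of the control library and cluster 2 held 20.5%.

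**Figure D1:**
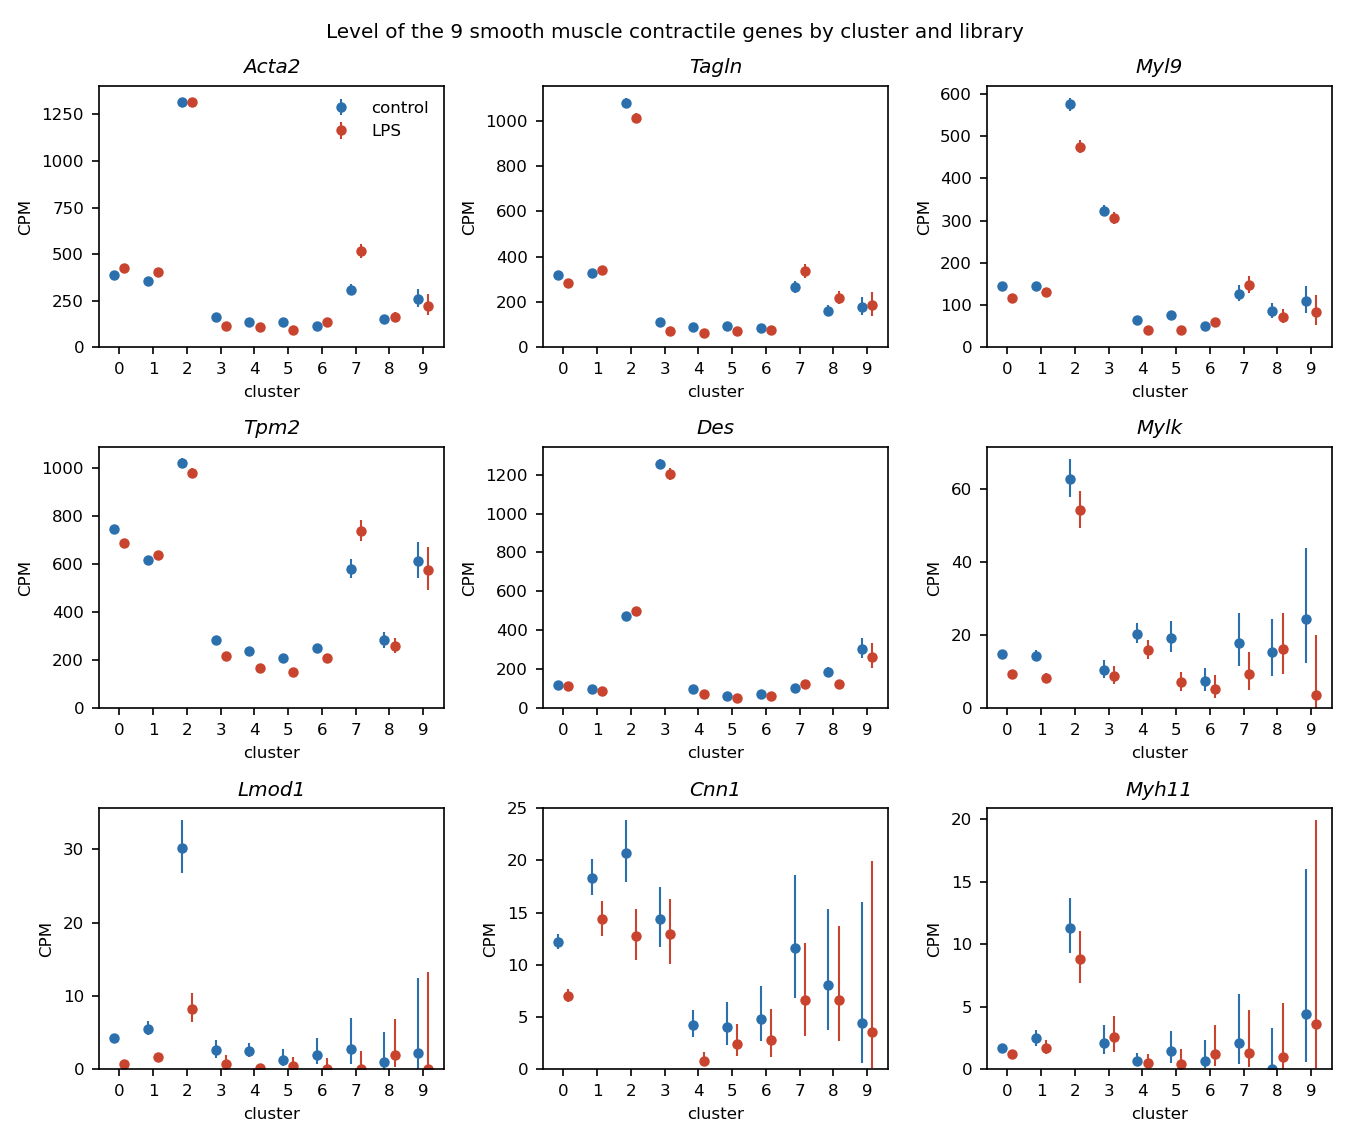
Level of each of the 9 genes (CPM, linear axis from 0) in clusters 0 to 9 of the control (blue) and LPS (red) libraries, with exact 95% Poisson intervals. *Acta2*, *Tagln*, *Myl9*, *Tpm2*, *Mylk*, *Lmod1* and *Myh11* peaked in cluster 2 in both libraries, and *Des* in cluster 3.

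Among the filament genes, *Acta2*, smooth muscle alpha-actin, stood at 1317 CPM (1294 to 1340) in cluster 2 of the control library and 1315 (1291 to 1340) of the LPS library. These levels were 3.42 and 3.10 times those of cluster 0, and the next highest clusters were cluster 0 in control (385 CPM) and the fibroblasts of cluster 7 in LPS (516 CPM). *Tpm2*, beta-tropomyosin, was the least particular to cluster 2, with 1022 and 979 CPM there against 748 and 686 in cluster 0. *Lmod1*, leiomodin, was scarce in every cluster, but its 30.2 CPM in control and 8.21 in LPS were 7.07 and 11.9 times the cluster 0 levels. In LPS its interval in cluster 2 (6.39 to 10.4) overlapped that of cluster 8 (0.231 to 6.88).

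Of the myosin genes, *Myh11*, the smooth muscle myosin heavy chain and a marker of mature smooth muscle, reached only 11.3 CPM in control (106 UMIs) and 8.81 in LPS (74 UMIs). In both libraries its interval in cluster 2 overlapped that of cluster 9, which rested on few cells. *Myl9*, the regulatory light chain, was at 576 and 476 CPM in cluster 2 and next highest in cluster 3 (324 and 307). *Mylk*, the kinase of that light chain, was at 62.8 and 54.3 CPM, 4.27 and 5.89 times cluster 0. Outside cluster 2 *Mylk* departed from the other members, since the control level was 20.4 CPM (17.8 to 23.2) in endothelial cluster 4, 14.7 (13.9 to 15.5) in cluster 0 and 7.38 (4.68 to 11.1) in macrophages.

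The actin-binding *Tagln*, transgelin, was at 1081 and 1013 CPM in cluster 2, 3.41 and 3.56 times cluster 0. *Cnn1*, calponin, had no clear peak. Its control levels were 20.7 CPM in cluster 2, 18.4 in cluster 1 and 14.4 in cluster 3, with overlapping intervals between neighbours in this order, and in LPS cluster 1 (14.4), cluster 3 (13.0) and cluster 2 (12.7) were the highest. *Des*, desmin, was highest in cluster 3, the cluster of striated muscle cells, at 1254 and 1203 CPM, and next in cluster 2, at 475 and 501. For comparison, 12.7% of the 11808 genes were highest in cluster 3 in both libraries.

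Counted per cell, the members differed in how widely they were seen. To set cells on an equal depth, 3000 UMIs were drawn from each one (27 LPS cells of cluster 2 with fewer were dropped). *Tpm2* then had a UMI in 89.3% of control and 85.6% of LPS cells of cluster 2, *Des* in 71.5% and 73.2%, *Acta2* in 65.7% and 61.0%, *Myl9* in 58.6% and 48.8% and *Tagln* in 54.8% and 49.5%. *Mylk* was seen in 16.6% and 14.6%, *Lmod1* in 8.42% and 1.79%, *Cnn1* in 3.70% and 3.23% and *Myh11* in 3.37% and 2.3%. Without thinning the share for *Acta2* was 80.6% and 71.1%, and for *Lmod1* 15.6% and 3.59%.

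Droplets carry free RNA, so shares were also taken in endothelial cells and macrophages, which should lack most of the set. *Mylk*, with forms outside muscle, need not be absent there. *Acta2* had a UMI in 25% of control and 23.4% of LPS cells of endothelial cluster 4 (median depth 12499 and 9972 UMIs) and in 24.2% and 21.0% of macrophages (8846 and 6900 UMIs), after thinning. Without thinning these shares were 66.9% and 54.1%, and 60.5% and 38.1%. The shares in cluster 2 lay above them at equal depth. Thinning does not make the part of free RNA equal, and cells of cluster 2 were shallower before it (median 6854 and 5082 UMIs). That part was not measured. In macrophages and in cluster 0 of the control library *Tpm2* made up 42.9% of the UMIs of the 9 genes, and *Acta2* 19.4% and 22.1%, but *Des* made up 12.6% and 6.67% and *Tagln* 14.1% and 18.2%. In endothelial cluster 4 *Mylk* made up 3.14% and *Des* 14.9% of these UMIs, against 0.844% and 6.67% in cluster 0. After thinning *Myh11* was seen in 1 control macrophage (0.356%) and in no control cell of cluster 4, where it had 7 UMIs without thinning. The thinned shares of *Cnn1* were 1.07% and 0.968%.

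Within cluster 2 the contractile load was uneven. A thinned control cell held a median of 8 UMIs of the 9 genes (10th to 90th percentile 3 to 33, highest 108), and a thinned LPS cell a median of 7 (2 to 36, highest 133). The tenth of cells with the most held 35.6% of these UMIs in control and 40.5% in LPS. Such a share was not particular to cluster 2. It was 29.8% and 31.1% in cluster 0, 37.9% and 37.5% in endothelial cluster 4 and 32.0% and 48.1% in macrophages. The variance over the mean, which is 1 for random sampling alone, was 15.8 and 20.5 in cluster 2 and 3.85 and 3.90 in cluster 0. It was 2.88 and 2.14 in endothelial cluster 4 and 1.46 and 3.34 in macrophages. The mean count per cell was also highest in cluster 2 among these clusters, and this measure can rise with the mean. The gap between clusters is therefore not a measure of unevenness alone.

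**Figure D2:**
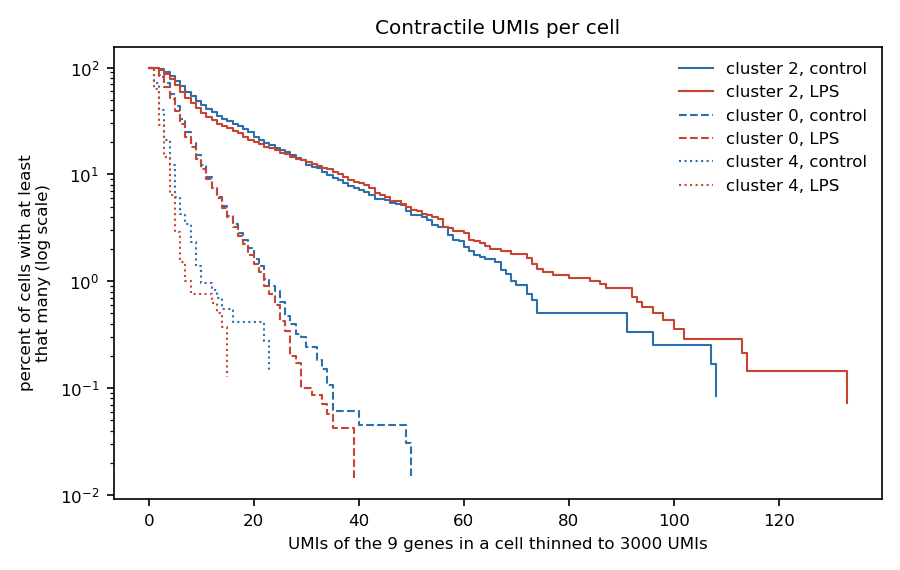
Percent of cells (log axis) holding at least a given number of UMIs of the 9 genes after thinning to 3000 UMIs, for clusters 2, 0 and 4 of both libraries. Cells of cluster 2 extend to 108 UMIs in control and 133 in LPS, far beyond the cells of clusters 0 and 4.

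The scarce members were found in the cells rich in the abundant ones. In the control library, the 40 thinned cells of cluster 2 with a *Myh11* UMI held a mean of 11.1 *Acta2* UMIs, and the other 1148 held 3.74. The 100 cells with a *Lmod1* UMI held 9.11 *Acta2* UMIs against 3.51 in the others, and the 44 with a *Cnn1* UMI held 10.1 against 3.75. The LPS library showed the same order, with 11 against 3.86 for *Myh11*, 12.0 against 3.88 for *Lmod1* and 15 against 3.65 for *Cnn1*. *Mylk* separated the cells less (5.19 against 3.74 *Acta2* UMIs in control). *Des* hardly differed by *Lmod1* in control (1.66 against 1.56 UMIs) but did in LPS (2.8 against 1.54). By *Myh11* in control *Des* was at 2.15 against 1.54. The order for *Acta2* was not particular to cluster 2. In control cells of cluster 0 it was 3.3 against 1.12 by *Myh11*, 2.49 against 1.11 by *Lmod1* and 2.71 against 1.09 by *Cnn1*. In LPS the *Myh11* split of cluster 0 was smaller, 1.4 against 1.22. Cells of a library are not replicates, so these are descriptions.

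Cluster 2 was divided with all 9 genes left out of the clustering, and the libraries joined, into 7 sub-clusters. One of them, sub-cluster 2 (229 control and 228 LPS cells), held 42.7% of the contractile UMIs of cluster 2 in control and 43.5% in LPS. Its leading genes other than members were *Actg2*, a second smooth muscle actin, *Tgfb3*, *Ctgf*, *Nexn*, *Filip1l*, *Gadd45g* and *Amotl2*. The summed level of the 9 genes was 11379 CPM in control and 13145 in LPS, and between 2257 and 4425 in the 6 other sub-clusters.

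The 9 genes did not share this concentration equally. Against the rest of cluster 2, sub-cluster 2 was 5.31 times higher in control and 6.66 times in LPS for *Acta2*, 5.30 and 7.42 for *Tagln*, 4.17 and 5.76 for *Myl9*, 4.70 and 6.85 for *Lmod1*, 4.33 and 6.50 for *Cnn1* and 3.68 and 7.36 for *Myh11*. *Tpm2* (1.88 and 2.48), *Mylk* (1.84 and 1.97) and *Des* (1.3 and 1.24) were spread more evenly. *Actg2*, no member, was 7 and 8.17 times higher, while *Smtn*, smoothelin, a smooth muscle structural gene, was not higher at all (0.955 and 0.957). The smooth muscle markers other than the 9 genes summed to 1217 and 968 CPM in sub-cluster 2 and to at most 609 and 466 elsewhere. Of this sum in sub-cluster 2, *Ppp1r14a* gave 649 and 549 CPM and *Actg2* 365 and 288. *Susd5*, *Nrip2* and *Fhl5* had no UMI there, so the higher sum was not shared by every listed marker. The pericyte markers of sub-cluster 2 (1419 and 1139) were below those of cluster 2 as a whole. *Myh11* had a second high level in sub-cluster 5, at 23.7 and 29.7 CPM, on only 13 and 11 UMIs. *Sncg*, *Cdkn1a*, *Map3k7cl* and *Mdm2* were among the leading genes there. *Map3k7cl*, a listed smooth muscle marker, was at 54.8 and 170 CPM in sub-cluster 5 against 20.4 and 11.5 in sub-cluster 2.

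**Figure D3:**
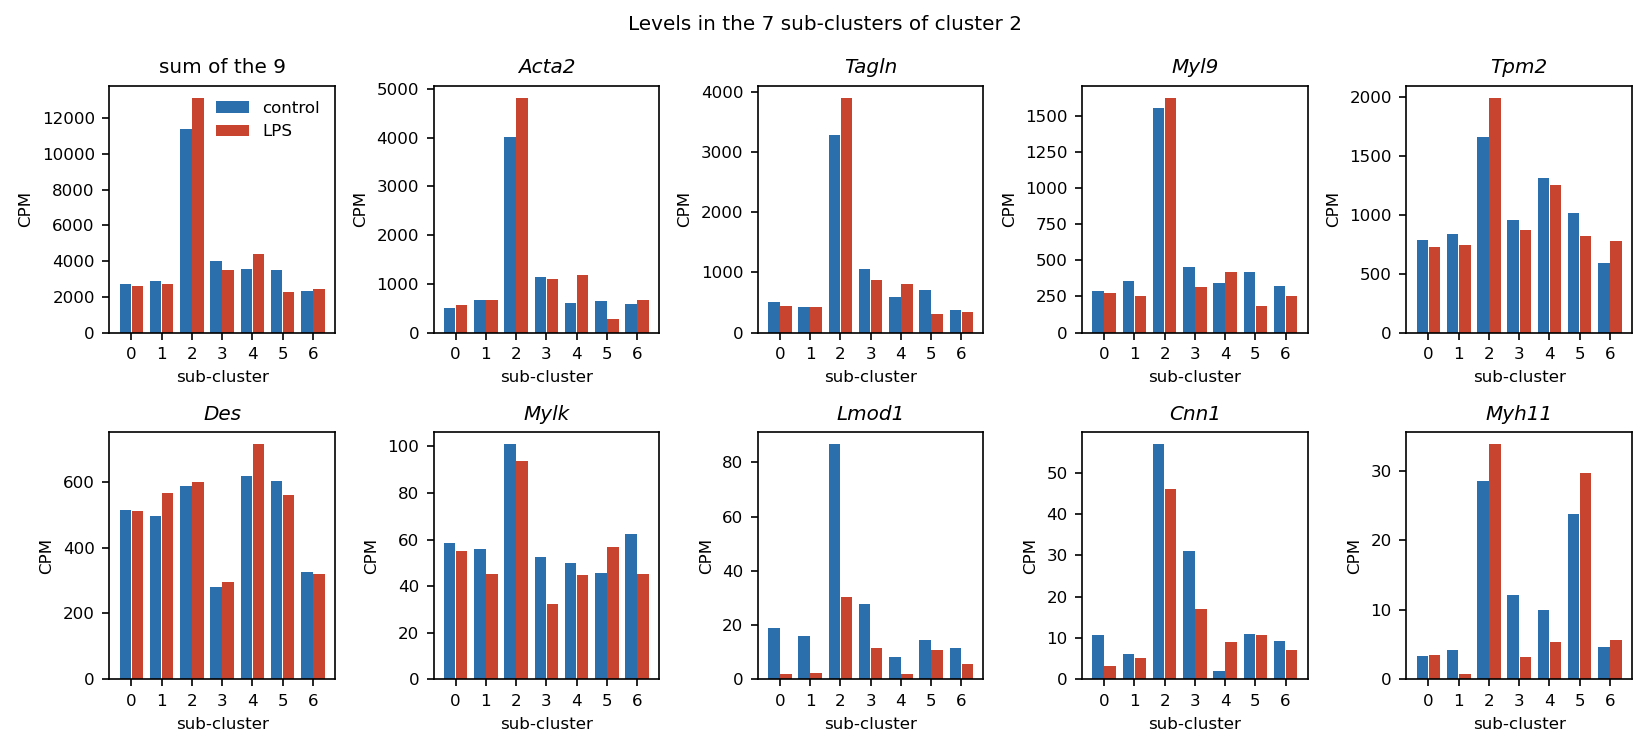
Levels (CPM, bars from 0) of the sum of the 9 genes and of each gene in the 7 sub-clusters of cluster 2, control in blue and LPS in red. Sub-cluster 2 stands highest for the sum and for *Acta2*, *Tagln*, *Myl9*, *Tpm2*, *Mylk*, *Lmod1*, *Cnn1* and *Myh11* in both libraries.

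The LPS library was then compared with the control library. In cluster 2 *Acta2*, *Tagln*, *Tpm2* and *Des* were close to equal, *Myl9* was lower at a ratio of 0.826, and the largest difference was in *Lmod1*. *Lmod1* had 283 UMIs in control and 69 in LPS, a level 3.68-fold lower in LPS (ratio 0.272, 0.206 to 0.355). *Cnn1* followed with 194 and 107 UMIs and a ratio of 0.615 (0.481 to 0.783). These were 2 of 9 genes at least 1.5-fold lower, where 13.6% of the 8930 genes with at least 50 UMIs in cluster 2 were, and 0 of 9 were at least 1.5-fold higher, where 5.81% of all genes were. The make-up of cluster 2 differed too. Sub-cluster 0, led by *Cxcl2* and *Cxcl10*, held 17.5% of its control and 44.3% of its LPS cells, and sub-cluster 1 held 36.8% and 16.5%. The part of this shift in the ratios was not tested.

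The other 7 members stayed within 1.5-fold, although *Myh11* was past it, at a log2 ratio of -0.82, in the cells of any cluster with at least 3 pericyte marker UMIs. *Acta2* had a ratio of 0.999 (0.973 to 1.02), *Tpm2* 0.957 (0.929 to 0.986), *Tagln* 0.938 (0.911 to 0.965) and *Des* 1.05 (1.01 to 1.10). *Mylk* was at 0.865 (0.764 to 0.979), *Myl9* at 0.826 (0.793 to 0.861) and *Myh11* at 0.778 (0.570 to 1.06). The median log2 ratio over all genes tested in cluster 2 was -0.12 and that of the 9 genes was -0.21. Read against this median, *Acta2*, *Tagln*, *Tpm2* and *Des* were slightly above and the other 5 below, and *Cnn1* then came within 1.5-fold, so that *Lmod1* alone was past it. *Lmod1* was also the 1 member at least 2-fold lower, where 4.28% of all genes were. The call for *Cnn1* was likewise lost with thinned cells, with the mean of the cells' own levels, without the deepest cells and after clustering anew.

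**Figure D4:**
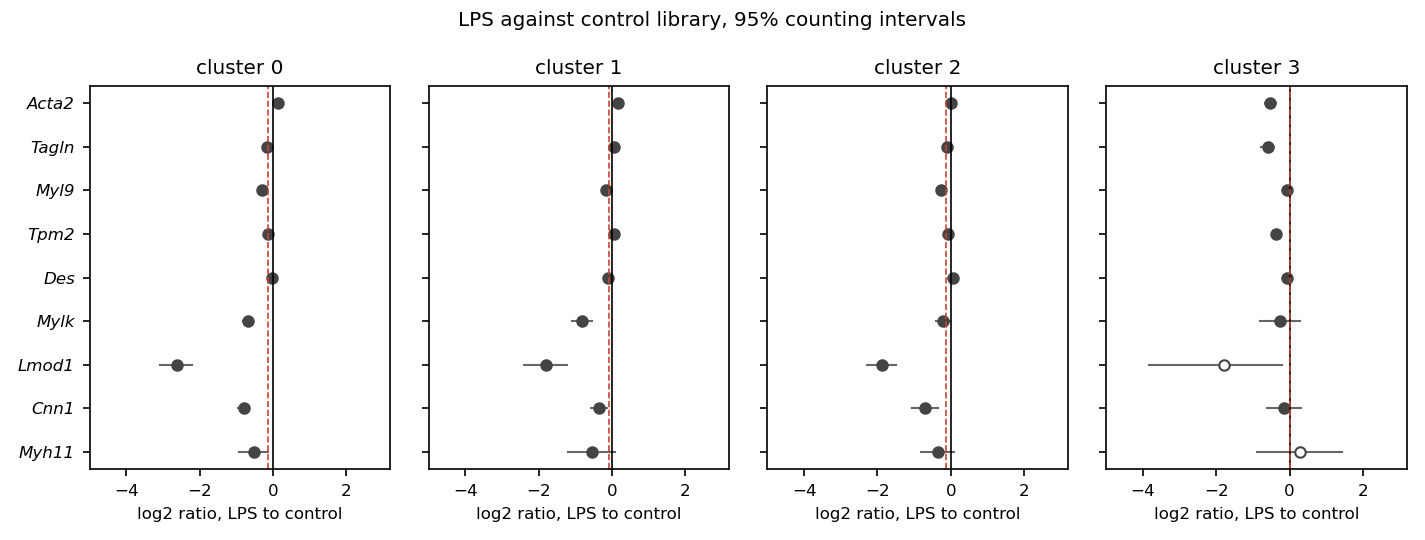
Log2 ratio of the LPS to the control level of each of the 9 genes in clusters 0 to 3, with 95% counting intervals; open circles have under 50 UMIs over both libraries, and the red dashed line is the median of all genes tested in the cluster. *Lmod1* lies furthest to the left in each of the 4 clusters.

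The lower level of *Lmod1* was not confined to cluster 2. Over all cells the control library had 864 of its UMIs and the LPS library 162 (ratio 0.224, 0.188 to 0.266). In cluster 0 it had 387 and 51 UMIs (0.162) and in cluster 1 132 and 32 (0.289). The clusters with fewer counts gave 18 and 4 UMIs in cluster 3, 27 and 2 in cluster 4, 6 and 0 in macrophages and 4 and 0 in cluster 7, and in cluster 8 there were 1 and 2. Within cluster 2 its level was lower in LPS in each of the 7 sub-clusters, from 86.7 to 30.5 CPM in sub-cluster 2 and from 19.0 to 2.05 in sub-cluster 0, and the interval lay below 1 in sub-clusters 0 to 3.

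*Cnn1*, *Mylk* and *Myl9* were each also at least 1.5-fold lower in more than 1 cluster. *Cnn1* had a ratio of 0.577 in cluster 0 (1105 and 520 UMIs) and of 0.195 in endothelial cluster 4, on 47 and 8 UMIs. *Mylk* had ratios of 0.627 in cluster 0, 0.572 in cluster 1 and 0.364 in endothelial cluster 5, but 0.865 in cluster 2. With *Lmod1*, 3 of 9 members were at least 1.5-fold lower in cluster 0, where 19.7% of all genes were, and 2 of 9 in cluster 1, where 13.3% were. In endothelial cluster 4, *Cnn1* and *Myl9* (0.609) were at least 1.5-fold lower, 2 of 7 members with enough UMIs against 13.2% of all genes. *Myl9* was at 0.547 (0.454 to 0.657) in endothelial cluster 5. The intervals of *Tagln* and *Tpm2* lay below 1 in clusters 0, 2, 3, 4 and 5, with ratios from 0.658 to 0.957, and above 1 in clusters 1 and 7.

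*Acta2* had ratios on both sides of 1. In the fibroblasts of cluster 7 it stood at 308 CPM in control and 516 in LPS, a ratio of 1.68, and was the 1 of 5 members at least 1.5-fold higher, where 10.5% of all genes were. In clusters 0 and 1 the ratios were 1.10 and 1.13. In cluster 3 (160 and 111 CPM) and in endothelial clusters 4 and 5 it was lower, with ratios of 0.695, 0.802 and 0.670, and in these clusters the sum of the 9 genes was also lower, at 0.897, 0.716 and 0.684. The *Acta2* levels of clusters 3 to 5 were 160, 134 and 136 CPM in control and 111, 108 and 90.8 in LPS. They lay above that of macrophages in control (113 CPM, 102 to 126) and below it in LPS (137 CPM, 123 to 152). In macrophages, where free RNA cannot be told apart from expression, the ratio of *Acta2* was on the other side of 1, at 1.21 (1.04 to 1.40). Of the 340 *Acta2* UMIs of LPS macrophages, 60 came from 1 cell, while the highest control macrophage held 16 of 353. The LPS level and the ratio of macrophages therefore rest in part on that cell. The share of macrophages with an *Acta2* UMI was lower in LPS, as given above. The part of free RNA in these ratios was not tested.

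The ratios of *Acta2* also differed in size and side among the sub-clusters of cluster 2, a difference that was not tested. In sub-cluster 2, where the contractile genes were concentrated, *Acta2* was at 4011 CPM in control and 4819 in LPS (ratio 1.20, 1.16 to 1.24), *Tagln* had a ratio of 1.19 (1.14 to 1.23) and *Tpm2* of 1.20 (1.13 to 1.27), while *Lmod1* was at 0.352. In the rest of cluster 2 *Acta2* had a ratio of 0.958 and *Tagln* of 0.846, and the summed level of the 9 genes was 3184 and 2886 CPM. In sub-cluster 4, with *Ctsc* among its leading genes, *Acta2* went from 603 to 1177 CPM (1.95). In sub-cluster 5 it went the other way, from 650 to 272 (0.419), together with *Tagln* (0.432) and *Myl9* (0.441). Both values depended on how finely cluster 2 was divided. At a clustering resolution of 0.8 in place of 0.5 the sub-cluster that took in all 155 cells of sub-cluster 5 had ratios of 0.708 for *Acta2* and 0.702 for *Tagln*, and at 0.3 the cells of sub-cluster 4 fell in a sub-cluster of 1720 cells with an *Acta2* ratio of 1.07. These small sub-clusters held 68 and 96, and 82 and 73, control and LPS cells, and genes that differ between the libraries took part in defining the sub-clusters, so which cells entered each one is part of these ratios.

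The genes around the contractile apparatus were examined through 5 lists in cluster 2, each read against the 13.6% of all genes at least 1.5-fold lower and 5.81% higher. Listed genes with under 50 UMIs there were not counted. Of other smooth muscle cytoskeleton genes, 4 of 16 were lower and 0 higher, namely *Smtn* (50.2 and 18.0 CPM, 0.358), *Nexn*, a filament-binding protein (0.470), *Cnn2*, a calponin (0.484), and *Synm*, an intermediate filament protein (0.657), with a median log2 ratio of -0.28. Of the genes that set light chain phosphorylation, 3 of 14 were lower and 0 higher. They were *Rock2*, a kinase that inhibits myosin phosphatase (0.659), *Ppp1r14a*, an inhibitor of myosin phosphatase (416 and 275 CPM, 0.660), and *Cacna1c*, a calcium channel (52 and 31 UMIs, 0.665, 0.412 to 1.06), with a median of -0.25.

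Transcriptional regulators of smooth muscle genes had the lowest median of the lists, -0.62, with 6 of 10 lower and 0 higher. *Srf*, serum response factor, was at 23.6 and 15.4 CPM (0.651, 0.520 to 0.812). *Mef2c* was at 40.4 and 16.0 (0.395), *Fhl2* at 31.8 and 16.3 (0.513), *Csrp2* at 42.8 and 22.4 (0.523) and *Gata6* at 4.27 and 2.74 (0.641, 0.366 to 1.10), and *Elk1* was the sixth. *Myocd*, myocardin, the partner of *Srf* on CArG boxes, had 7 UMIs in control and 1 in LPS in all of cluster 2, too few to compare. The lower levels of this list were not particular to cluster 2. In cluster 0, 7 of 12 regulators were lower, where 19.7% of all genes were, and 1 was higher, with a median of -0.67. In cluster 3 the median was -0.0006. The list was not split by whether a regulator raises or lowers the contractile genes.

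Isoforms of other muscle and of nonmuscle cells were counted in the same way. Of the striated muscle genes 3 of 12 were lower and 1 higher, with a median of -0.32. The higher one was *Myl4*, an atrial light chain (6.19 and 21.1 CPM, 3.40). The lower ones were *Acta1* (43 and 17 UMIs, 0.441), *Myl7* (0.520) and *Actn2* (0.660). In cluster 0 the median of this list was -0.34. In control, *Myh6* (14.8 and 14.9 CPM), *Myh7* (44.7 and 46.8) and *Actc1* (14.7 and 14.1) were near equal in clusters 2 and 0. They reached 809, 3287 and 896 CPM in cluster 3. *Tnnt2* differed, with 187 CPM in cluster 2 and 91.4 in cluster 0. The part of free RNA in these levels was not tested. Of the nonmuscle genes 2 of 9 were lower and 0 higher, *Myh10* (0.551) and *Vim*, vimentin (2184 and 1348 CPM, 0.617), with a median of -0.31. Marker sums moved too: those of pericytes, smooth muscle without the 9 genes and fibroblasts were all lower in cluster 2 of the LPS library, as given above, and their part in these ratios was not tested.

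**Figure D5:**
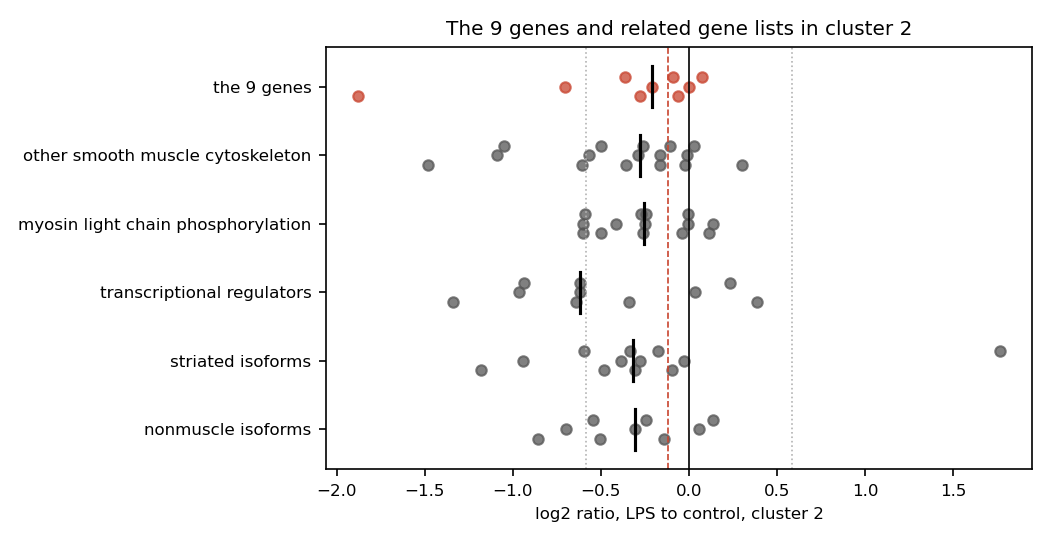
Log2 ratio of LPS to control in cluster 2 for genes with at least 50 UMIs, 1 point per gene, with the median of each list as a black bar. Dotted lines mark 1.5-fold and the red dashed line the median of all genes (-0.12); *Lmod1* is the leftmost of the 9 genes and *Myl4* the point furthest to the right.

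The genes with profiles most like the mean of the 9, over 20 profiles (10 clusters in 2 libraries), were *C1qtnf5* (Pearson r = 0.904), *Ppp1r14a* (0.895), *Lhfpl6*, *S100a3*, *Ddah2*, *Pofut2*, *Cygb*, *Plac9*, *Cox4i2* and *Gucy1b1* (0.845). Profiles of 1 cluster in 2 libraries share their cell type and each library its depth, so r is a description. Among 11808 genes ranked this way, *Myl9* was number 1, *Acta2* 4, *Tagln* 6, *Myh11* 10, *Lmod1* 20, *Tpm2* 21 and *Cnn1* 26, while *Mylk* was 120 and *Des* 352. Each member is itself a part of the mean. Of the 10 genes, 4 were also among the 10 by rank correlation and 6 among the 10 from the control library alone.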

How the data were processed

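Single-cell libraries of LPS- and saline-treated neonatal rat heart cells, 1 per condition, were analysed. The deposited values are raw counts of UMIs per gene and cell, made by the authors without normalization; the submitters' processing notes name Cell Ranger 2.2.0 and Seurat 2.3.4, and the genome build is not given in the sources used here. Clusters are the authors', from libraries joined by canonical correlation analysis (CCA). Cells without a cluster (2 control, 8 LPS) were left out of classes, and no doublet caller was run.

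Counts were summed per cluster and library in Python 3.11.15 (numpy 2.4.6, scipy 1.17.1, pandas 2.3.3, scanpy 1.11.5), with exact Poisson, exact conditional and Clopper-Pearson intervals at 95%. A count of 0 is read as at most 3 UMIs. Cells are not replicates, so no test was made and genes past 1.5-fold, with at least 50 UMIs over both libraries of a cluster, are counted against the same share of all genes. Seurat 5.3.0 (R 4.3.3) divided cluster 2 into sub-clusters (2000 variable genes without the 9 genes, CCA, 30 dimensions, 20 neighbours, resolution 0.5). Named genes are the 9, up to 4 genes per list with the largest absolute log2 ratio in cluster 2 plus *Srf* and *Myocd*, the leading genes of cluster 2 and its sub-clusters in at least 25% of cells (not every one is reported here), and the 10 genes most like the 9. *Actg2*, which is also a leading gene of sub-cluster 2, *Elk1* and *Dbh* were named after their values were seen. Other single genes of the marker and isoform lists, such as *Pdgfrb*, *Cspg4*, *Pln*, *Kcnmb1*, *Myh6* and *Tnnt2*, were named outside this rule. Near-identical actin genes may share reads, and how the authors' counting split these was not examined. The members and lists were chosen with earlier results of these data known. On simulated data for cluster 2 (8930 genes), 100% of genes made 3-fold higher and 99% of those made 3-fold lower were called. Of unchanged genes 1.91% were called, and 95.6% of intervals held the true ratio. The simulated counts were Poisson draws, as the intervals assume, without spread between cells or libraries. These shares therefore check the calculation only and do not give the rate of false calls in these data.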

Additional observations from a re-analysis of the deposited data

Results flagged for a closer look

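Some members had counting intervals wholly above 1 for the ratio of LPS to control in one cluster and wholly below 1 in another, with 1 library on each side, and the difference between clusters was not tested. *Acta2* had a ratio of 2.48 in cluster 10, on 20 and 55 UMIs from 16 control and 26 LPS cells, and of 0.670 in endothelial cluster 5. In cluster 10 a single LPS cell held 24 of the 55 UMIs, and the highest control cell held 5. The thinned share of its cells with an *Acta2* UMI was lower in LPS, at 34.6% against 43.75% in control. *Tagln* had 1.37 in cluster 8 and 0.658 in cluster 3. *Tpm2* had 1.27 in the fibroblasts of cluster 7 and 0.700 in endothelial cluster 4. *Des* had 1.05 in cluster 2 and 0.666 in cluster 8.

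The same was seen among the sub-clusters of cluster 2, again without a test of the difference. *Acta2* had a ratio of 1.95 in sub-cluster 4 and 0.419 in sub-cluster 5, *Tagln* 1.37 and 0.432 in the same sub-clusters, and *Tpm2* 1.31 in sub-cluster 6 and 0.814 in sub-cluster 5. At a resolution of 0.8 the sub-clusters that held most of their cells gave *Acta2* 1.53 and 0.708 and *Tagln* 1.46 and 0.702 for sub-clusters 4 and 5, and at 0.3 they gave *Acta2* 1.07 and 0.404. Among cells that the authors put in no cluster, the 8 LPS cells held 10 UMIs of the 9 genes among 24315 and the 2 control cells none. These cells were 88.0% mitochondrial in the LPS library by the median.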

How the results depend on the processing

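No paired analysis was possible because LPS and control have a single library each. The summed level of the 9 genes in cluster 2 had a log2 ratio of -0.07. It became 0.044 when the median of all genes was set to 0, -0.029 without the 8% of cells with the most UMIs, -0.0079 in clusters made anew without the 9 genes, and -0.0022 in cells with at least 3 pericyte marker UMIs. The pericyte marker cells came from all clusters, and 853 of 1364 in control and 755 of 1083 in LPS lay in cluster 2. A fixed cut of 3 UMIs also depends on depth, which was lower in the LPS library. The count of members at least 1.5-fold lower went from 2 to 1 with the mean of the cells' own levels, the median scaling, the 8% left out, thinned cells, the new clusters and a 2-fold rule, and to 3 in pericyte marker cells, where *Myh11* was at -0.82. Among single genes the sign turned for *Acta2*, whose main value was -0.0016 (0.116 with median scaling, 0.102 in pericyte marker cells, 0.0635 without the 8%, 0.0604 in the new clusters and at most 0.0135 in 3 others), *Tagln* (0.025 with median scaling, 0.027 in the new clusters, 0.038 in pericyte marker cells), *Tpm2* (0.055 with median scaling), *Mylk* (0.017 in pericyte marker cells) and *Des* (-0.00023 when thinned). The cause was not tested, except that median scaling adds the same amount to every gene. *Lmod1* ranged from -2.19 to -1.76 and *Cnn1* from -0.89 to -0.12. The count of members highest in cluster 2 was 7 in all 4 alternatives run, each of which kept the authors' clusters. Resolutions of 0.3 and 0.8 gave 5 and 7 sub-clusters, and the richest one shared 433 of its 434 and 451 of its 451 cells with sub-cluster 2. Leaving out barcodes found in both libraries, and leaving out sub-cluster 3 with its fibroblast genes and deep cells, were chosen after seeing the data and gave -0.09 and -0.07 for the sum. *Myh11*, *Cnn1* and *Lmod1* rest on few UMIs, and without replicates no ratio can be told apart from a difference in handling of the libraries.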
